A study of Mus musculus with 4 samples.

Results

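A set of 10 genes of epidermal growth factor receptor (EGFR) signalling was followed across the 4 arrays of the series: the inactive rhomboid proteins Rhbdf2 and Rhbdf1, the sheddase Adam17, the receptors Egfr, Erbb2 and Erbb3, and the ligands Areg, Hbegf, Tgfa and Btc. The genes were listed by pathway, but they were chosen by someone who knew the cKO to het differences of these same arrays, that of Rhbdf2 among them. Their differences between the groups are therefore a description. Where a fit over all genes was run, the number of members that passed is stated beside the share of all genes that passed, and no support is drawn from it. The array annotation named a probe set for 9 of the 10 genes, 22 probe sets in all, out of 18193 genes and 45037 probe sets. Areg was not analysed here, because the annotation used pairs no probe set with that symbol.

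Mouse embryos were taken at E16.5, and RNA came from epidermal cells that flow cytometry had sorted for α6 integrin, a surface marker of the basal layer, and for YFP. In the group labelled cKO (2 arrays, Ko_1210 and KO_1261) both Srf alleles were floxed. In the group labelled het (2 arrays, het_1210 and het_1261) 1 allele was floxed, and the submitters' design text calls this group WT. Both groups carried K14-Cre and a floxed ROSA26 YFP reporter, so the controls also had Cre and may lack 1 Srf allele in these cells, and K14-Cre acts in keratin 14-expressing epithelia rather than in all cells of the embryo. The labels do not say whether a sample is 1 embryo or a pool, so the spread between samples may be technical in part.

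The product of Srf, serum response factor (SRF), binds DNA together with MRTF coactivators, which follow actin, or with ternary complex factors, which follow ERK. EGFR ligands are made as membrane-bound precursors. Adam17 cuts several of them free, but not all. The products of Rhbdf1 and Rhbdf2, iRhom1 and iRhom2, carry Adam17 out of the endoplasmic reticulum and stay with it at the cell surface. Released ligands bind EGFR on basal keratinocytes, where the receptor drives proliferation, restrains differentiation and activates ERK. Gain-of-function mutations of human RHBDF2 cause tylosis, a thickening of the palms and soles.

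All values are MAS5 signals on a linear scale, which have no physical unit, and differences are cKO minus het of log2(signal + 1). A probe set entered the tests if its mean log2 signal was above the median of all probe sets, which corresponds to a signal of 65.9. That left 17 of the 22 probe sets, and all 9 genes kept the probe set with the highest mean signal, which represents the gene below. The same title number ends the names het_1210 and Ko_1210, called the first number here, and another ends het_1261 and KO_1261, the second number. What they mark is not stated, and they went with a technical difference: the poly-A spike-in controls were 2.45-fold higher on het_1210 than on het_1261 and 2.52-fold higher on Ko_1210 than on KO_1261. Each difference is therefore given within the first and within the second number, each of which has 1 array per group. The poly-A controls also differed between the groups, by less: cKO over het was 0.88 within the first number and 0.86 within the second. For the hybridization spike-in controls it was 0.83 and 0.87. Srf itself had a signal of 834 and 1108 on het_1210 and het_1261 and of 47.9 and 80.4 on Ko_1210 and KO_1261.

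Rhbdf2 was lower in both cKO samples than in both het samples. Its probe set had a signal of 202 on het_1210, 168 on het_1261, 20.0 on Ko_1210 and 72.4 on KO_1261. The groups did not overlap, and Ko_1210 was by far the lowest. Mean signals (± SD of 2 arrays) were 185 ± 24.0 for het and 46.2 ± 37.0 for cKO. The log2 difference was -3.27 within the first number and -1.21 within the second number, with a mean of -2.24 and a standard error of 0.71 in limma without a block and 0.48 with the number as a block. The 2 het arrays lay close together and the cKO arrays further apart. The signal on Ko_1210 was below the filter and that on KO_1261 just above it, near the range where MAS5 signals are imprecise on a log scale. Rhbdf2 was above the filter through its het arrays. In a bulk sample, fewer cells with a transcript and less of it per cell cannot be told apart.

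In limma without a block, 0 of 9 members and 0 of 11053 genes passed at an adjusted p of 0.05 (0% of genes), while 66 genes had an unadjusted p below 0.05. When the number was a block, 1 of 9 members passed, Rhbdf2, against 97 of 11053 genes (0.878%, and 0.624% passed with a lower value in cKO). Both cKO arrays lay below both het arrays for 1 of 9 members, again Rhbdf2, and for 10.9% of tested genes. Both lay above for 0 of 9 members and for 8.17% of tested genes. These counts use the contrast known when the genes were chosen, and nothing is read from them. Over the 9 members the median difference was 0.07 (0.09 and 0.06 within the first and the second number), with 6 higher and 3 lower, and over all tested genes it was -0.02. Median centring of the arrays moved the median of all tested genes to 0.10, a shift of the scale that raised every member by the same amount.

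**Figure D1:**
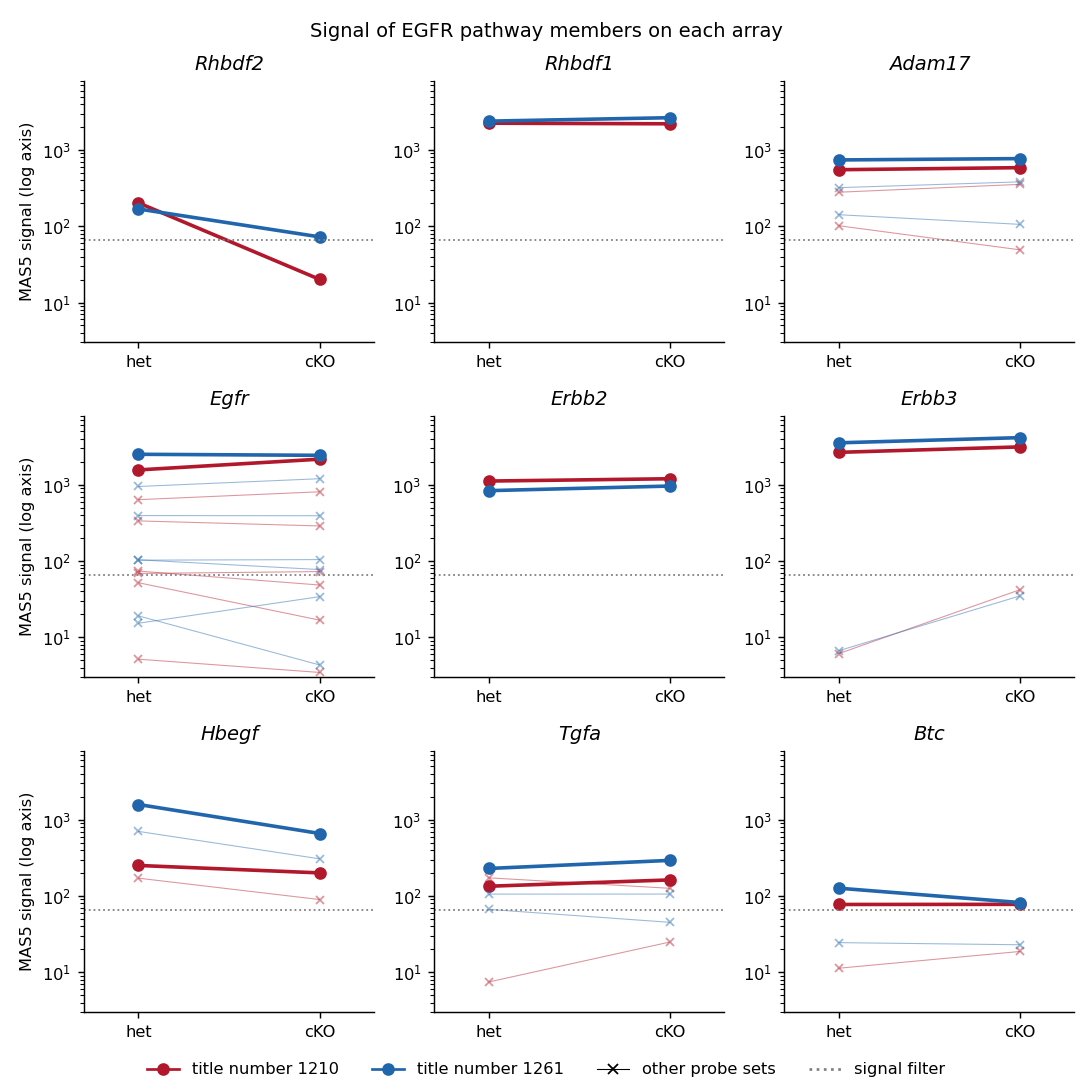
MAS5 signal (log axis) of each member in het and cKO, with lines joining arrays of the same title number; thick lines with filled circles are the probe set that represents the gene, thin lines with crosses its other probe sets, and the dotted line is a signal of 65.9. The 2 lines of Rhbdf2 slope down and those of Hbegf are set apart by number, while Rhbdf1, Adam17, Erbb2 and Erbb3 have nearly level thick lines.

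The paralog of Rhbdf2 and the protease that both iRhoms carry had no such difference. Rhbdf1 had a signal of 2241 on het_1210, 2384 on het_1261, 2199.9 on Ko_1210 and 2645 on KO_1261. The means (± SD of 2 arrays) were 2313 ± 101 for het and 2422 ± 315 for cKO, and the log2 difference was -0.03 and 0.15 within the numbers. The groups overlapped and the difference of the means was smaller than the spread within cKO. Adam17 had a signal of 550.5 and 739 in het and of 586 and 769.7 in cKO (the first, then the second number), a log2 difference of 0.09 and 0.06. Its standard error of 0.30 without a block exceeded the mean difference of 0.07. The other probe sets of Adam17 disagreed with each other. One was higher on both cKO arrays (354 and 381) than on both het arrays (279 and 320.1), by 0.34 and 0.25. The dimmest was lower in cKO within both numbers, at -1.04 and -0.42, with a signal of 49.0 on Ko_1210. Which transcripts these probe sets read is not known here.

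The receptors differed little between the groups. Egfr, the receptor that binds Hbegf, Tgfa and Btc, had a signal of 1567 on het_1210, 2512 on het_1261, 2169 on Ko_1210 and 2436 on KO_1261. The array het_1210 stood below the other 3, and both cKO values lay between the het values. The log2 difference was 0.47 within the first number and -0.04 within the second number. A second probe set of Egfr was higher in cKO within both numbers, by 0.34 in each, from 639 and 951 in het to 810.5 and 1202 in cKO. Of the 5 Egfr probe sets above the filter, 3 had a positive and 2 a negative mean difference, from -0.51 to 0.34, and the groups overlapped in all 5. The other 2 probe sets stayed under a signal of 53 on every array.

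Erbb2, the co-receptor without a known ligand, had a signal of 1120.0 and 838 in het and of 1201 and 963 in cKO, a log2 difference of 0.10 and 0.20. Erbb3, which binds neuregulins and has little kinase activity of its own, had a signal of 2664 and 3551 in het and of 3140.4 and 4152 in cKO. Its log2 difference was 0.24 and 0.23, nearly the same within both numbers, with a standard error of 0.28 without a block and 0.15 with it. For both receptors the arrays of the groups overlapped, since the numbers were further apart than the groups. A second Erbb3 probe set went from 6.12 and 6.68 in het to 42.2 and 35.0 in cKO, all below the filter, so no fold is read from it.

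Among the ligands, Hbegf was lower in cKO within both numbers and at both of its probe sets. Hbegf encodes heparin-binding EGF-like growth factor, which keratinocytes induce on wounding. The brighter probe set had a signal of 251 on het_1210, 1581 on het_1261, 201 on Ko_1210 and 659 on KO_1261. The other had 171 and 702 in het and 89.7 and 307 in cKO, in the same order. The groups overlapped at both, because the arrays of the second number were far above those of the first number. Within the first number the log2 difference was -0.32 at the brighter and -0.92 at the other probe set, and within the second number it was -1.26 and -1.19. Thus het was 2.40-fold and 2.29-fold higher than cKO within the second number, and 1.25-fold and 1.90-fold higher within the first number. The mean difference of -0.79 had a standard error of 1.03 without a block and 0.22 with it. The mean difference changed sign when 1 array was left out, to 0.53 without het_1261 and 0.06 without Ko_1210, since the numbers were then unbalanced between the groups.

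Tgfa, encoding transforming growth factor α, an autocrine ligand of keratinocytes, had a signal of 134 and 229 in het and of 162 and 293 in cKO. The log2 difference was 0.27 and 0.35 within the numbers and the groups overlapped. A second Tgfa probe set went the other way within the first number, at -0.45, and did not differ within the second number, at 0.003, so the probe sets give no common direction. Btc, encoding betacellulin, had a signal of 77.4 and 126.5 in het and of 77.7 and 82.0 in cKO, close to the filter. Its log2 difference was 0.006 within the first number and -0.62 within the second number, where het_1261 stood above the other 3 arrays.

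**Figure D2:**
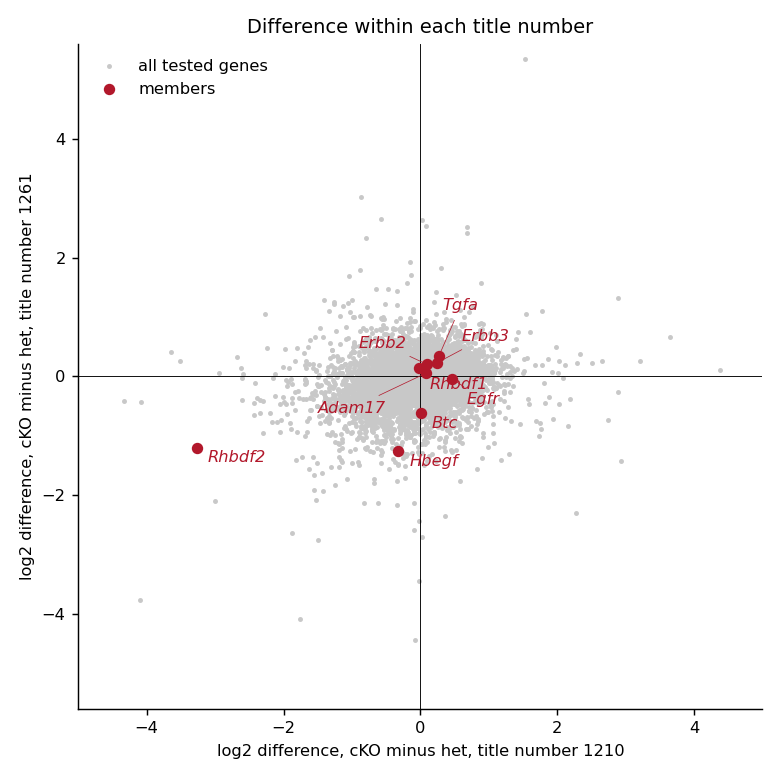
Log2 difference cKO minus het within the first number (horizontal) and within the second number (vertical), each from 1 array per group, for all tested genes (grey) and the 9 members (red); 2 genes lie outside the axes. Rhbdf2 lies at -3.27 and -1.21, outside the main cloud, Hbegf at -0.32 and -1.26, and the other 7 members near the centre.

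The difference between the title numbers was not used to choose the genes, and it was larger than the group difference for most members. In limma with the group in the model, 4 of 9 members passed, all higher in the second number, against 3533 of 11053 genes (32%; 1421 higher and 2112 lower in the second number). That fit has 1 residual degree of freedom and its variance prior adds 34.4, so its errors and p-values rest mostly on variances pooled over genes. Hbegf was higher by 2.18 ± 0.22 (SE, adjusted p = 9.33e-10), in het by 6.28-fold and in cKO by 3.27-fold. Its second probe set was higher by 1.90 ± 0.26 (adjusted p = 4.78e-07). Tgfa was higher by 0.81 ± 0.29 (adjusted p = 0.0259), Egfr by 0.42 ± 0.16 (adjusted p = 0.0430) and Erbb3 by 0.41 ± 0.15 (adjusted p = 0.0315). The second Tgfa probe set above the filter went the other way, at -0.48 ± 0.36 (adjusted p = 0.324), so the Tgfa probe sets give no common direction here either. Hbegf passed in all 7 settings of this comparison, Erbb3 in 4 and Egfr and Tgfa in 3. Erbb2, at -0.37 ± 0.18, passed in the setting with median centring, where the median of all tested genes moved from -0.13 to -0.38. Rhbdf2 did not pass (0.77 ± 0.48, adjusted p = 0.225): the log2 difference was 1.80 for KO_1261 minus Ko_1210 and -0.26 for het_1261 minus het_1210. Whether its cKO to het difference depends on the number cannot be tested with 1 array per cell of the design.

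**Figure D3:**
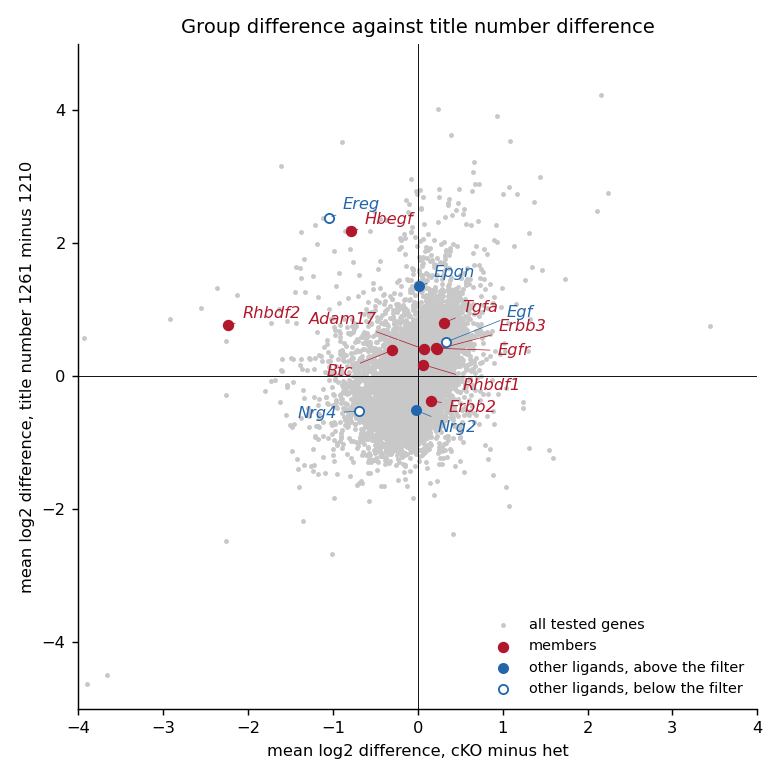
Mean log2 difference cKO minus het (horizontal) against mean log2 difference second minus first number (vertical) for all tested genes (grey), the 9 members (red) and 5 other ligands of the family (blue, open where below the filter); 2 genes lie outside the axes. Hbegf and Ereg lie together at the upper left, at -0.79 and 2.18 and at -1.05 and 2.38.

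The other ligands and the fourth receptor were mostly below the filter. Of 8 listed genes 2 were tested, and 0 passed in either fit. Epgn, encoding epigen and, like Ereg and Erbb4 below, named after its values were seen, had a signal of 712 and 1905 in het and of 754 and 1847 in cKO, a log2 difference of 0.08 and -0.04. Like Hbegf it was higher in the second number, by 1.36 ± 0.17 (adjusted p = 1.25e-07). Ereg, encoding epiregulin, was above the filter on 1 array: its signal was 20.9 on het_1210, 179.9 on het_1261, 15.7 on Ko_1210 and 54.1 on KO_1261. Its pattern over the arrays was that of Hbegf, with lower cKO values within both numbers, but 3 of the 4 values are near background. Nrg4, a neuregulin, was below the filter in 3 of 4 arrays, with 90.3 and 42.2 in het and 37.4 and 38.4 in cKO. Erbb4, the remaining receptor, had a signal of 1.87 to 11.7, far below the filter.

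Of the other rhomboid proteins, sheddases and their inhibitors, 16 were tested and 0 passed in either fit, with 9 higher and 7 lower in cKO and a median difference of 0.01. Adam10, the sheddase of Btc and of Egf, had a log2 difference of 0.42 and 0.02. Frmd8, which binds iRhoms and stabilises them, had a signal of 589.6 and 554 in het and of 644 and 583 in cKO, a difference of 0.13 and 0.07. Both were named after their values were seen. Both cKO arrays lay below both het arrays for 3 of the 16 and above for 2, against 10.9% and 8.17% of all tested genes. By the naming rule, Adam19 had -1.02 and -0.27, Rhbdl3 0.09 and 0.70 and Adam9 0.52 and 0.11, with groups that did not overlap. The others without overlap, named after their values were seen, were Timp3 (-0.20 and -0.39) and Furin (-0.12 and -0.32). Of 17 tested ADAM17 substrates that are not EGFR ligands, 9 were higher and 8 lower, with a median of 0.11 and 0 that passed. Tnf, the cytokine that gave Adam17 its first name and named after its values were seen, had a signal of 217 and 991 in het and of 513 and 1143 in cKO, a difference of 1.24 and 0.21 that did not pass (adjusted p = 0.128 in limma with the block). Vcam1, at -0.67 and -0.27, and L1cam, at -0.19 and -0.63, were lower on both cKO arrays than on both het arrays and did not pass. These are 2 of the 17, near the share of 10.9% of all tested genes, so nothing is read from them. Vcam1 was below the filter on Ko_1210, at 58.6.

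Downstream of the receptors, 18 adaptors and kinases were tested, with 12 higher and 6 lower, a median of 0.12 and 0 that passed. Plcg1, a phospholipase that binds activated EGFR, was lower on both cKO arrays (1291 and 1376) than on both het arrays (1494 and 1718), at -0.21 and -0.32, and did not pass. It was 1 of the 18 with this order, against 10.9% of all tested genes. Of 17 tested inhibitors of EGFR, 12 were higher and 5 lower, with a median of 0.08 and 0 that passed. Errfi1, encoding the feedback inhibitor Mig6 and named after its values were seen, had a difference of 0.24 and -0.09. Ptprj, a receptor phosphatase, was lower within both numbers, at -0.70 and -0.62, but 3 of its 4 signals were below the filter.

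Transcripts that ERK induces went both ways between cKO and het. Of 14 tested, 9 had higher and 5 lower values in cKO, and their median was 0.07 (0.06 and -0.08). In limma without a block 0 passed and 3 had an unadjusted p under 0.05. With the block 3 passed with lower and 1 with higher values, 4 of 14 against 0.878% of all tested genes. The list was written with earlier results of these data known, so nothing is read from this share. Those that passed with lower values were the zinc finger factors Egr1 (-1.49 and -2.76), Egr2 (-1.76 and -4.08) and Egr3 (-1.52 and -2.08). Ier3 passed with a higher value (1.25 and 0.30). With a robust prior Egr3 alone of these passed. The other 10 did not pass and are named after their values were seen. Dusp6, an ERK phosphatase that ERK induces, had a signal of 3159 and 8440 in het and of 3278 and 8592 in cKO, a difference of 0.05 and 0.03. Fosl1, an AP-1 subunit, had 198 and 2869 in het and 208 and 3835 in cKO, a difference of 0.07 and 0.42. Dusp4 had 0.09 and 0.04, Etv5 0.45 and 0.14, Myc 0.26 and -0.06, and Ccnd1 -0.45 and -0.25. The signs were opposite within the numbers for Fos (1.07 and -0.18), Phlda1 (0.78 and -0.11) and Etv4 (-0.40 and 0.54), and Dusp5 had -1.25 and -0.99. Between the numbers, 10 of the 14 passed with a higher and 1 with a lower value in the second number, with a median of 1.20 against -0.13 for all tested genes: Fosl1 was higher by 4.02 ± 0.19 and Dusp6 by 1.40 ± 0.14. Hbegf and Epgn were thus higher on the arrays on which most of this list was higher.

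The stress keratins, which are linked to iRhom2 in skin thickening, differed among themselves. Of 4 listed, 2 were higher and 2 lower in cKO by the mean. Krt6a went from 193 and 142 in het to 196 and 886 in cKO and passed in limma with the block (adjusted p = 0.0437), but not with a robust prior. Krt6b went from 48.2 and 21.3 to 142 and 906; it was below the filter on both het arrays and entered the test through cKO, so its pass with the block is no support for the list. Both differed mostly within the second number, where Rhbdf2 differed less. Their probe sets may read each other's transcript. Krt17 and Krt16 were named after their values were seen. Krt17 was lower in cKO within both numbers, with 22346 and 8581 in het and 11473 and 8049 in cKO, a difference of -0.96 and -0.09. Krt16, at -0.99 and 0.42, had opposite signs within the numbers.

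**Figure D4:**
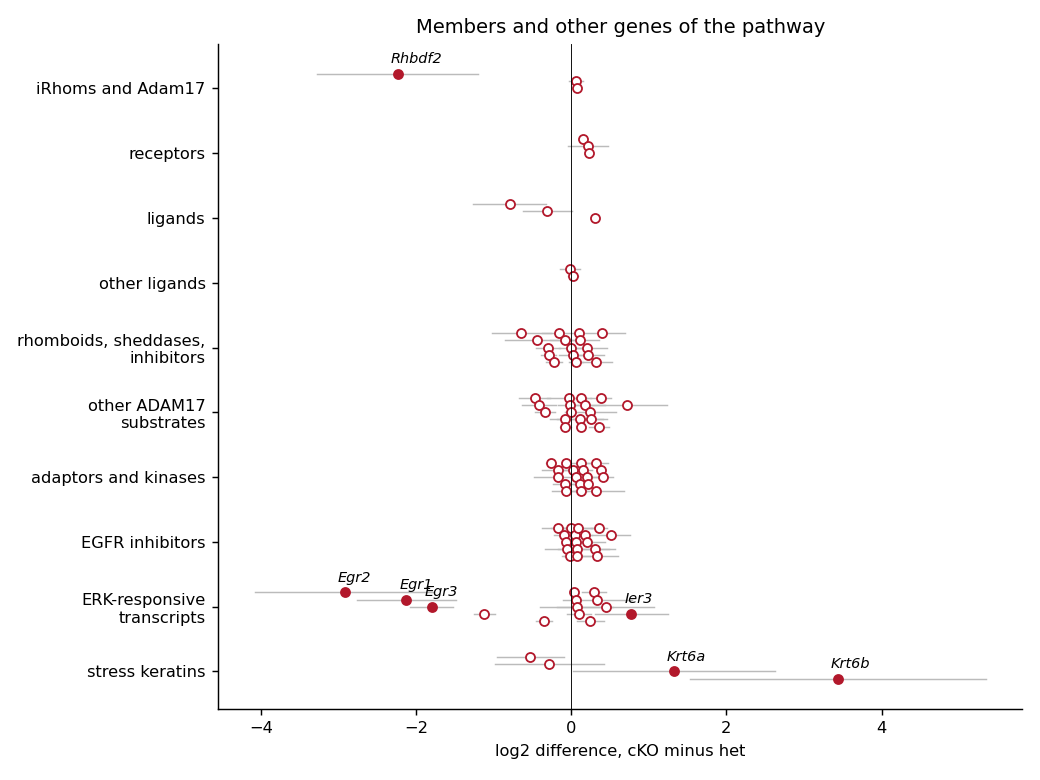
Log2 difference cKO minus het for the 9 members (top 3 rows) and the tested genes of 7 other lists of the pathway; circles are the mean, grey bars join the values within the first and the second number, and filled circles passed in limma with the block. The filled circles are Rhbdf2, Egr1, Egr2, Egr3, Ier3, Krt6a and Krt6b.

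SRF binds a 10-base element, the CArG box, so the 300-base windows around gene starts (250 bases before and 50 after, RefSeq, GRCm38.p6) were searched for it on both strands. A window was held for 6 of the 10 listed genes, Areg, Btc, Tgfa, Egfr, Erbb2 and Adam17. None was held for Rhbdf2, Rhbdf1, Hbegf or Erbb3. Of the 6 windows 0 contained the box, against 1.63% of all 32851 windows. At that share a match among 6 windows would be rare, so nothing is read from its absence. Of the other genes of the pathway lists, Egr2 and Dusp5 had a match in a window that was held. Boxes outside these windows were not searched for. Dusp5, an ERK phosphatase named after its values were seen, had a signal of 91.9 and 440.0 in het and of 38.0 and 222 in cKO. Like Hbegf it was lower in cKO within both numbers, at -1.25 and -0.99, was higher in the second number by 2.38 ± 0.34, and did not pass in limma with the block (adjusted p = 0.141). The 250 bases before the Dusp5 start (chr19:53528895-53529144, plus strand) hold 2 adjoining boxes, and the 30 bases around 1 of the 2 boxes found near annotated Egr2 starts (chr10:67537787-67537816, plus strand) hold 1. They are shown because these are the genes of the pathway lists with a match in the windows searched, with the boxes in capitals:
Dusp5: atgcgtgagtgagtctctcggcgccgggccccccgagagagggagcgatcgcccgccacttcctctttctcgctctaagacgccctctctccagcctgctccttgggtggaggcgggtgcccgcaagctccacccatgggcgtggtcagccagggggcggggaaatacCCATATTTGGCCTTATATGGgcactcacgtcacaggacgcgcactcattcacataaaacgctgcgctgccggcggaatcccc
Egr2: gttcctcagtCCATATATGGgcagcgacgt
A match describes letters and does not show binding.

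Genes with the pattern most like that of Rhbdf2 over the 4 arrays, by the Euclidean distance of their centred log2 signals, were Msx3 (distance 0.71), Snx29 (0.71), Uba7 (0.80), Pla2g2f (0.83) and Laptm5 (0.98). All 5 had their lowest signal on Ko_1210, from 15.6 for Msx3 to 58.5 for Laptm5. Laptm5 is a lysosomal protein of blood cells, and Rhbdf2 too is known to be expressed in immune cells. Of the 9 immune markers 3 were tested, all 3 lower in cKO by the mean and 1 of them, Laptm5, within both numbers. Csf1r (-0.80 and 0.64) and Cd74 (0.07 and -0.96) had opposite signs within the numbers. Of those not tested, Cd52 and Cd3e were higher in cKO by the mean, at 0.12 and 0.66, and Ptprc, Tyrobp, Fcer1g and Cd207 lower. Laptm5 passed in limma with the block (adjusted p = 0.0367), as did 0.878% of all tested genes. It is named above for a pattern like that of Rhbdf2, so nothing is read from this pass. The summed signal of all 9 markers was 753 and 793 in het and 396 and 633 in cKO (the first, then the second number). The sum was lowest on Ko_1210, but it includes Laptm5, named above among the genes most like Rhbdf2, so nothing is read from this. Laptm5 alone had 267 and 195 in het and 58.5 and 114 in cKO. Ptprc, which defines blood cells, was below the filter on every array, at 23.5 to 35.7, and none of the 9 was listed at 0. The part of immune cells in the difference of Rhbdf2 was not tested.

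Markers of the sorted population were present in all samples, with signals of 35314 to 57958 for Krt5 and 35520.1 to 59598 for Krt14. Of the 8 basal markers 0 passed in either fit. Their summed signal was 157443 and 120090.0 in het and 150853 and 117399 in cKO. Of 7 tested suprabasal markers 5 were lower in cKO within both numbers and 4 passed with the block, with a summed signal over the 8 listed of 154298 and 100696 in het and 97144 and 78154 in cKO. Of 10 dermal fibroblast markers 8 were lower within both numbers and 3 passed with the block, with sums of 48856 and 41119 against 36170.1 and 37597. The melanocyte sums were 1461 and 770.0 against 797 and 749, and the endothelial sums 389.7 and 381 against 232 and 279. In these 4 lists the sum was lower in cKO within both numbers and more so within the first. Some markers went the other way. Lor, at 1.68 and -0.75, and Ivl, at 1.75 and -0.78, were higher in cKO within the first number. Pdgfra, at 0.64 and 0.87, was higher within both. Of 5 tested periderm markers 3 were lower in cKO within both numbers and 1 was higher within both, with a median of -0.17. The sum over the 6 listed was higher in cKO within both numbers, at 1971 and 3711 against 1801 and 3029 in het. That was through Cldn4, with 962 and 2335 in cKO against 598 and 1712 in het. The nerve and Schwann cell sum was 741 and 831 in het and 673 and 919.9 in cKO. No listed marker that was matched was at 0. Their part in the values of the members was not tested.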

How the data were processed

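Each array gives 1 intensity per probe set, deposited on a linear scale. The authors computed it with MAS5, as the submitters' processing notes name it, with no version given. Every array had a mean of 500.0 after trimming 2% at each end, which shows a common scaling. Of 45101 probe sets 64 were controls, 34945 had 1 gene symbol (updated by Entrez identifier) and 932 several. The 22518 probe sets above the filter, which represent 11053 genes by the brightest probe set, were fitted in limma 3.58.1 (R 4.3.3; lmFit, then eBayes with trend) on log2(signal + 1), without a block as the main fit and with the title number as a block. Tests were two-sided, with Benjamini-Hochberg adjustment over probe sets at 0.05. With 2 arrays per group, their number limits the precision. With group and title number both in the model, 1 residual degree of freedom is left. Standard errors and p-values of that model rest mostly on variances pooled over genes. Deviations from the group means correlated at 0.755 between arrays of one number, but 2 such pairs and the titles do not settle whether the number marks animals. The main fit therefore leaves the number out, as planned, although it separated the arrays, and 0 calls there do not show that genes did not differ; values within each number and the blocked fit are given beside it. The members and lists were chosen with earlier results of these data known. From the 7 pathway lists (104 genes, 97 matched, 88 tested), the text names genes that passed in a fit and up to 3 per list whose groups do not overlap. Other names are marked. Listed genes that matched no probe set were not analysed here. Figures were drawn with matplotlib 3.10.9.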

Additional observations from a re-analysis of the deposited data

How the results depend on the processing

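Without a block, 0 genes, 0 probe sets and 0 genes of the pathway lists passed in limma (4 of the 88 tested list genes had an unadjusted p under 0.05). With the title number as a replicate block these counts were 97, 194 and 6. With the block and a robust prior they were 50, 84 and 1, the last being Egr3, and with the block and no variance trend 0, 0 and 0. Rhbdf2 was the member among those that passed with the block, with or without the robust prior, and it was not called without the trend. It was chosen with this difference known, so these calls say nothing about stability. With 1 array left out and no block, 0 to 2 genes and 0 to 5 probe sets passed, none of them a member. The remaining settings (a pseudocount of 16, no filter, a mean signal of at least 100, median centring, quantile scaling and no trend) left the counts without a block at 0.

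The median difference of the members, 0.07, became 0.11 for those with a mean signal of at least 100, 0.20 under median centring, -0.0051 with all probe sets of a gene averaged, and ranged from -0.13 to 0.29 with 1 array left out. Of 53 member values listed under settings that keep all 4 arrays, 2 changed sign, those of Adam17 (-0.12) and Egfr (-0.21) with all probe sets averaged. Erbb3 moved most there, from 0.23 to 1.32, through a probe set below the filter. The settings with no filter and with a mean signal of at least 100 leave a member's own value as it was. Their values are among the 53 and could not change. With 1 array left out, 7 of 9 members changed sign at least once; Rhbdf2 and Erbb3 did not. Rhbdf2 ranged from -3.14 without KO_1261 to -1.34 without Ko_1210, and was -1.83 with a pseudocount of 16. Between the numbers 3533 genes passed, and 612 without the variance trend. Leaving out an array was not run there, since no residual degree of freedom was left.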

Other observations

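Other genes around EGFR also differed between the title numbers, in limma with the group in the model, and are given here as values chosen after they were seen. Icam1, an adhesion molecule that ADAM17 can shed, was higher on the arrays of the second number by 1.93 ± 0.14 on the log2 scale (SE; adjusted p = 3.61e-13) and Tnf by 1.67 ± 0.22 (adjusted p = 1.43e-07). Errfi1 was higher by 1.06 ± 0.16 (adjusted p = 1.64e-06). Of the 17 tested EGFR inhibitors 9 passed with higher and 1 with lower values there, and of 17 ADAM17 substrates 4 and 1. Over all 11053 tested genes 1421 passed with higher and 2112 with lower values, and no difference between lists was tested. Of 16 rhomboid proteins, sheddases and inhibitors 0 were higher and 2 lower: Timp2, an inhibitor of metalloproteinases, at -0.78 ± 0.28 (adjusted p = 0.0265) and Tspan5, a tetraspanin that binds Adam10, at -0.51 ± 0.18 (adjusted p = 0.0241). What the title numbers mark was not tested.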
